A study of Mus musculus with 15 samples.

Results

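The genes described here are 10 markers of hippocampal interneurons: the peptide genes Sst, Npy, Vip and Cck, the glycoprotein gene Reln, the serotonin receptor gene Htr3a, the GABA synthesis genes Gad1 and Gad2, and the calcium-binding protein genes Pvalb and Calb2. They were chosen by gene symbol from a list of known markers, not by their measured values, and each of the 10 was read by 1 probe set carrying only its symbol. They are 10 of the 19938 genes measured. Earlier results of these data were known when the genes were chosen. RNA came from the right hippocampus of 15 male C57BL/6 pups on postnatal day 9, with birth counted as day 1, in litters kept to at most 7 per dam. From day 5 to day 9 the pups were given severe stress with morphine (SSM), severe stress with saline (SSS), mild stress with morphine (MSM) or mild stress with saline (MSS), or were left untreated (CC), with 3 pups in each of the 5 groups. Neither the kind of stress nor the dose of morphine, an opioid painkiller, is stated in the sources used here. The labels do not tie pups to litters, so the p-values below reflect only how much these arrays varied, which may in part be technical. Each RNA was hybridised to its own Affymetrix Mouse Gene 1.0 ST array, and all levels below are log2 intensities normalised by RMA, a method that corrects background, equalises the arrays and summarises the probes of each probe set. Group values are means ± SD (n = 3 arrays), and differences are differences of group means in log2 units with the standard error (SE) from limma, a linear model fitted to all genes at once. Htr3a, Vip and Pvalb were dim, with means over the 15 arrays of 6.19, 5.15 and 4.85. These lie below the median gene level, 6.25, taken over the means of all genes.

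Interneurons are the GABA-releasing cells of the hippocampus, where they restrain and time the firing of the pyramidal and granule cells. They are sorted into classes by what they make: somatostatin and parvalbumin cells come from the medial ganglionic eminence of the embryonic brain, and most VIP, CCK, calretinin and serotonin-receptor cells from the caudal one. At this age many classes are still maturing, parvalbumin appears late, and reelin is made both by interneurons and by the transient Cajal-Retzius cells of the marginal zone.

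The promoters of 6 of the genes are shown because 4 of them share a short motif and because Npy and Reln, with Sst, had the smallest p-values of the 10 genes between SSM and SSS pups. The RefSeq promoter table (mouse GRCm38.p6) held 8 of the 10 genes with 9 transcription starts; Htr3a and Calb2 were not matched. Each line gives the 150 bases before a start, 5′ to 3′ on the strand of the gene, in lower case, with the motif in capitals. The motif is TGACG or, on the other strand, CGTCA, the core bound by the cAMP response element binding protein; in Sst the motif occurs on both strands, overlapping in the full palindrome TGACGTCA. The windows lie at chr16:23890845-23890994 (minus strand) for Sst, chr10:5639068-5639217 (plus) for Vip, chr9:121495695-121495844 (minus) for Cck, chr2:22622177-22622326 (plus) for Gad2, chr6:49822560-49822709 (plus) for Npy and chr5:22344706-22344855 (minus) for Reln.
Sst: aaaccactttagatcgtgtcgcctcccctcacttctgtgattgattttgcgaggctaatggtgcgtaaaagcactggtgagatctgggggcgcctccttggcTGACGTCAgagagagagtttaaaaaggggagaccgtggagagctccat
Vip: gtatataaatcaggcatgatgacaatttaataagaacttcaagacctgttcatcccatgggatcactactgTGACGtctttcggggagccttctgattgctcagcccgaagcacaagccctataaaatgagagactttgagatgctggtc
Cck: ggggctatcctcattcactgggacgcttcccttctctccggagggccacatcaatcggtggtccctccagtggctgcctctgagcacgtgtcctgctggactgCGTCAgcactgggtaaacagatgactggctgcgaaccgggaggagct
Gad2: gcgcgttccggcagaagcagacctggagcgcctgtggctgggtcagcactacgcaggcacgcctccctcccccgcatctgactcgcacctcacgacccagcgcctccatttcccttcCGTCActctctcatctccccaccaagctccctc
Npy: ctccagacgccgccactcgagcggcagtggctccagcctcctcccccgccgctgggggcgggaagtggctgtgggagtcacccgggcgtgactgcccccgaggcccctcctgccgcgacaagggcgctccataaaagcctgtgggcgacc
Reln: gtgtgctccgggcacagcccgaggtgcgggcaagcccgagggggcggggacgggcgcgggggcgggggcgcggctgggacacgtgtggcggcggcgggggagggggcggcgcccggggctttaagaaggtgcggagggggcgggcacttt

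The full palindrome of Sst lay 48 to 41 bases before the start, and 1.36% of the 32851 starts in the table hold it in a window of this length. TGACG or its reverse is held by 13.3% of all starts. Its copy lay 79 to 75 bases before the start in Vip, 47 to 43 in Cck and 33 to 29 in Gad2, and the letters did not occur in the windows of Npy, Reln, Gad1 and Pvalb. The 2 genes outside this motif shown above are rich in G and C, at 80.0% of bases in Reln and 73.3% in Npy, against 66.0% in Gad2, 61.3% in Cck, 52.0% in Sst, 44.0% in Vip and a median of 54.0% over all starts. These matches describe letters only. Between SSM and SSS pups the 4 genes that hold the motif differed by 0.31 (Sst), -0.02 (Vip), -0.08 (Cck) and 0.61 (Gad2).

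The arrays correlated at 0.990 to 0.998 across genes, but several stood apart from their groups in genes of neighbouring tissue. All 11 striatal genes were highest on SSM replicate 1, whose summed striatal intensity was 11011, against 5062 on CC replicate 1, 3884 on MSM replicate 2 and 2057 to 2693 on the other arrays. The thalamic list was highest on MSM replicate 3 for 10 of 12 genes, with a sum of 5472 there against 1473 to 2010 elsewhere. The list of pyramidal and granule cell genes, which checks the hippocampal label, was measured in 13 of 14 genes and summed to 5086 on MSM replicate 3, 8065 on SSM replicate 1, 8794 on CC replicate 1 and 9936 to 11196 on the other 12. The 15 choroid plexus genes summed to 967 on SSS replicate 2, 1110 on MSS replicate 1 and 1001 on MSS replicate 2, against 7250 to 11567 on the other 12 arrays. On SSM replicate 3 the genes as a whole lay higher, by a median of 0.15, so the deposited arrays were not fully equal in level. The SSM means over all arrays include this array. The part of these shifts in the results below was not tested beyond fits that leave such arrays out, given below for the main results; in bulk tissue, fewer cells of a type and less RNA per cell cannot be told apart.

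**Figure D1:**
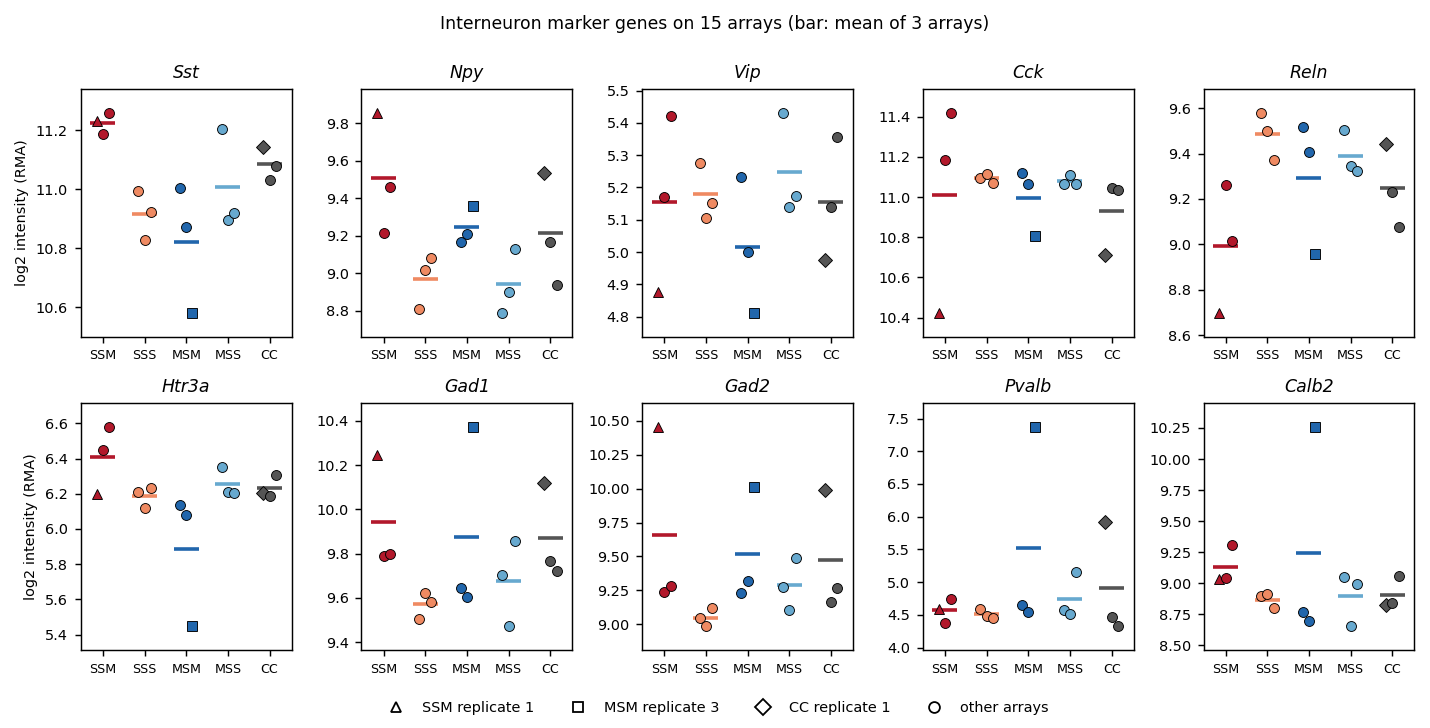
Log2 intensity (RMA, vertical axis, its range set for each gene) of the 10 interneuron marker genes on each of 15 arrays, by group; horizontal bars are means of 3 arrays, and SSM replicate 1, MSM replicate 3 and CC replicate 1 have their own symbols. On all 3 SSM arrays Sst lies above and Reln below every SSS array, while the Pvalb and Calb2 levels of MSM replicate 3 (7.37 and 10.26) stand above all other arrays.

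Morphine under severe stress was set against saline under severe stress first. Sst and Npy were higher and Reln lower in SSM than in SSS pups, by 0.31, 0.54 and -0.49, and in all 3 genes the arrays of the groups did not overlap. None of the 10 genes passed the adjusted threshold of 0.05, nor did any of the 19938 genes by limma, of which 1868 had an unadjusted p under 0.05. At that unadjusted threshold 3 of the 10 were counted (2 higher, 1 lower), against 9.37% of all genes, 8.71% higher and 0.662% lower. The arrays of the groups did not overlap for 5 members higher in SSM (Sst, Npy, Calb2, Gad1 and Gad2), against 11.7% of all genes, and for 1 member lower (Reln), against 1.15%. In either direction 6 of 10 did not overlap, against 12.9% of all genes. The median difference of the 10 genes was 0.24, and that of all genes 0.06.

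Sst codes for somatostatin, the peptide of dendrite-targeting interneurons that silences its targets. It was 11.23, 11.19 and 11.26 in SSM pups, against 10.99, 10.83 and 10.93 in SSS pups. Every SSM array exceeded every SSS array, and the 3 SSM values had an SD of 0.04. The difference was 0.31 (SE 0.10, 1.24-fold, unadjusted p = 0.00744, adjusted p = 0.494 by limma). Leaving out SSM replicate 1 and MSM replicate 3 kept it at 0.31, and over 28 alternative fits it lay between 0.24 and 0.35. These fits share arrays, and those that leave out only MSM, MSS or CC arrays cannot move this difference. The range is therefore not made of 28 separate checks. The SSM level of Sst was also the highest of the 5 groups, in the order SSM 11.23 ± 0.04, CC 11.09 ± 0.06, MSS 11.01 ± 0.17, SSS 10.92 ± 0.08 and MSM 10.82 ± 0.22. In that order SSM and CC did not overlap, and each later neighbour overlapped the one before it.

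Npy codes for neuropeptide Y, which many somatostatin cells and the neurogliaform and ivy cells release to dampen excitation. Npy was 9.86, 9.22 and 9.46 in SSM pups, against 8.81, 9.02 and 9.08 in SSS pups. The highest value of all 15 arrays was that of SSM replicate 1, and the other 2 SSM arrays also lay above all 3 SSS arrays. The difference was 0.54 (SE 0.16, 1.45-fold, unadjusted p = 0.00416, adjusted p = 0.494 by limma). It was 0.37 without SSM replicate 1 and MSM replicate 3 (unadjusted p = 0.0255), and 0.25 when SSM replicate 3 was left out as well, which leaves a single SSM array assumed to vary like the other groups. The order of its levels was SSM 9.51 ± 0.32, MSM 9.25 ± 0.10, CC 9.21 ± 0.30, SSS 8.97 ± 0.14 and MSS 8.94 ± 0.17, with every neighbouring pair overlapping.

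The other peptides, vasoactive intestinal peptide of interneurons that inhibit other interneurons and cholecystokinin of basket cells (and of many pyramidal cells), did not separate the groups. Vip was 4.88, 5.17 and 5.42 in SSM pups, against 5.28, 5.11 and 5.15 in SSS pups, a difference of -0.02 (95% interval -0.32 to 0.27). Cck was 10.43, 11.19 and 11.42 in SSM pups, against 11.10, 11.11 and 11.07 in SSS pups, a difference of -0.08 (95% interval -0.47 to 0.30). For Cck the SSM arrays held both the lowest and the highest of all 15 values, on replicates 1 and 3, while the 3 SSS arrays had an SD of 0.02. Without SSM replicate 1 and MSM replicate 3 the difference of Cck turned to 0.21 (unadjusted p = 0.0448, adjusted p = 0.414 by limma) and that of Vip to 0.12. In that fit, which keeps SSM replicate 3, the median difference over all genes was 0.08.

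Reln codes for reelin, a secreted protein that guides migrating neurons and later tunes synapses. It was 8.70, 9.26 and 9.02 in SSM pups, against 9.58, 9.50 and 9.37 in SSS pups. All SSM arrays lay below all SSS arrays, and SSM replicate 1 was the lowest of the 15. The difference was -0.49 (SE 0.15, 0.711-fold, unadjusted p = 0.00497, adjusted p = 0.494 by limma). It was -0.35 without SSM replicate 1 and MSM replicate 3 (unadjusted p = 0.00601) and -0.22 without SSM replicate 3 too. In order the group levels of Reln were SSS 9.48 ± 0.10, MSS 9.39 ± 0.10, MSM 9.29 ± 0.30, CC 9.25 ± 0.18 and SSM 8.99 ± 0.28, and each neighbour overlapped the next. With all arrays, none of the 6 Cajal-Retzius genes on a separate list differed at an unadjusted p under 0.05 between SSM and SSS. Of them 3 lay above 0 and 3 below, and their median was -0.01. Without SSM replicate 1 and MSM replicate 3 their median was 0.07, against 0.08 over all genes, with 4 above 0. Ebf3 was then at 0.34 (unadjusted p = 0.00127, adjusted p = 0.390 by limma), 1 of 6 against 11.9% of all genes.

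Htr3a codes for the ion-channel serotonin receptor that marks cells of caudal origin. It was 6.20, 6.45 and 6.58 in SSM pups, against 6.21, 6.12 and 6.23 in SSS pups. SSM replicates 2 and 3 lay above all SSS arrays and SSM replicate 1 among them, for a difference of 0.22 (SE 0.14, unadjusted p = 0.139 by limma). Without SSM replicate 1 and MSM replicate 3 the difference of Htr3a was 0.33 (unadjusted p = 0.000461, adjusted p = 0.341), and without SSM replicate 3 alone it was 0.14. By level the groups stood as SSM 6.41 ± 0.19, MSS 6.26 ± 0.08, CC 6.23 ± 0.06, SSS 6.19 ± 0.06 and MSM 5.89 ± 0.38, with overlap between all neighbours.

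Gad1 and Gad2 code for the enzymes that make GABA from glutamate, GAD67 in the cell body and GAD65 at terminals, and are used by all GABA neurons, those of the striatum included. Gad1 was 10.25, 9.79 and 9.80 in SSM pups, against 9.51, 9.62 and 9.58 in SSS pups, a difference of 0.37 (SE 0.18, unadjusted p = 0.0589). Gad2 was 10.45, 9.24 and 9.28 in SSM pups, against 9.05, 8.98 and 9.12 in SSS pups, a difference of 0.61 (SE 0.29, unadjusted p = 0.0537). Both genes were higher in every SSM array than in any SSS array, with SSM replicate 1 far above the other 2 SSM arrays. Without that array and MSM replicate 3 the differences were 0.22 (unadjusted p = 0.0753) for Gad1 and 0.21 (unadjusted p = 0.257) for Gad2, none passing adjustment (limma).

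Pvalb codes for parvalbumin, the calcium buffer of fast-spiking basket cells, and Calb2 for calretinin, which marks interneurons that inhibit other interneurons, mossy cells and Cajal-Retzius cells. Pvalb was 4.59, 4.37 and 4.74 in SSM pups, against 4.59, 4.48 and 4.45 in SSS pups, and its difference of 0.06 carried a 95% interval of -1.16 to 1.28. Calb2 was 9.03, 9.04 and 9.31 in SSM pups, against 8.90, 8.92 and 8.80 in SSS pups, with each SSM array above each SSS array. The Calb2 difference was 0.26 (SE 0.29, unadjusted p = 0.378), where the spread came mostly from MSM replicate 3, and without that array and SSM replicate 1 it was 0.31 (SE 0.11, unadjusted p = 0.0179, adjusted p = 0.390 by limma). The latter fit keeps SSM replicate 3, and its median difference over all genes was 0.08. Pvalb had the widest range of the 10 genes, 3.05 from the lowest to the highest array, and a larger spread within groups than 99.9% of all genes; the share was 99.2% for Gad2, 99.1% for Calb2 and 97.0% for Gad1.

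The number of members at an unadjusted p under 0.05 between SSM and SSS depended on which arrays entered. It was 3 of 10 with all arrays, 6 without SSM replicate 1 and MSM replicate 3 (Sst, Npy, Reln, Htr3a, Cck and Calb2, against 11.9% of all genes), and 7 without MSM replicate 3 alone (10.5%). It was 5 without SSM replicate 2 (16.1%) and 5 with the SSM and SSS arrays alone (5.31%). It was 8 without SSM replicate 1, MSM replicate 3 and CC replicate 1 (11.7%, a choice made after the data were seen) and 2 without SSM replicates 1 and 3 and MSM replicate 3 (Sst and Htr3a, against 3.46%). It was 3 under both quantile normalization (7.28%) and median centring (6.49%). Without the 3 arrays low in choroid plexus genes, SSS replicate 2 and MSS replicates 1 and 2, also left out after the data were seen, it was 3 (3.54%), with Sst at 0.27, Npy at 0.56 and Reln at -0.48. None of these fits gave an adjusted call, and the adjusted p of the 10 genes was at least 0.127 over all alternatives. The titles carry an SS number of unstated meaning, and within the only number shared by both groups, 8, SSM replicate 1 minus SSS replicate 3 was 0.77 for Npy, 0.31 for Sst, -0.67 for Reln, -0.65 for Cck, 0.66 for Gad1, 1.34 for Gad2, 0.23 for Calb2, 0.14 for Pvalb, -0.03 for Htr3a and -0.28 for Vip, a single pair that includes the array with the highest striatal genes.

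**Figure D2:**
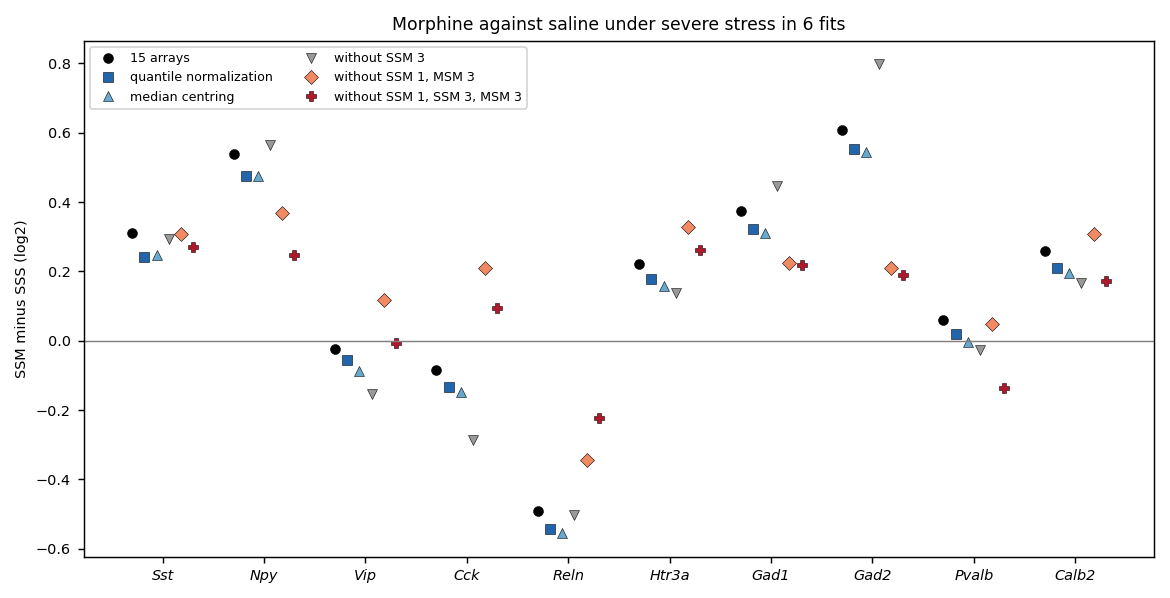
Difference of SSM minus SSS (log2, vertical axis) for each of the 10 genes in 6 fits: all 15 arrays, 2 other scalings, and 3 fits that leave arrays out. Sst lies between 0.24 and 0.31 and Reln below 0 in all 6, whereas Gad2 lies at 0.61 with all arrays and at 0.21 without SSM replicate 1 and MSM replicate 3.

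Morphine was then compared with saline under mild stress, where all 6 arrays share the SS number 11. Only Htr3a had an unadjusted p under 0.05, 1 of 10 members against 2.57% of all genes, and none of the 19938 genes passed adjustment (513 at an unadjusted p under 0.05, limma). Htr3a was 6.14, 6.08 and 5.45 in MSM pups, against 6.35, 6.21 and 6.20 in MSS pups, so that all MSM arrays lay below all MSS arrays. The difference was -0.37 (SE 0.14, unadjusted p = 0.0204, adjusted p = 1.00), and it was -0.15 (unadjusted p = 0.0592) without MSM replicate 3 and SSM replicate 1, where 2.18% of all genes and none of the 10 had an unadjusted p under 0.05. The array with the highest thalamic genes was thus the lowest of all for Htr3a, as it was for Sst (10.58) and Vip (4.81).

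Npy was 9.17, 9.21 and 9.36 in MSM pups, against 8.79, 8.90 and 9.13 in MSS pups, again without overlap, for a difference of 0.31 (SE 0.16, unadjusted p = 0.0745) and of 0.25 without the same 2 arrays. Sst was 11.005, 10.87 and 10.58 in MSM pups, against 11.21, 10.89 and 10.92 in MSS pups, a difference of -0.19 that was -0.07 without them. Reln was 9.52, 9.41 and 8.96 in MSM pups, against 9.50, 9.34 and 9.32 in MSS pups, a difference of -0.10 (95% interval -0.41 to 0.22). Only Npy and Htr3a of the 10 genes had groups that did not overlap, against 7.35% of all genes in either direction.

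Calb2, Pvalb, Gad1 and Gad2 had their largest or second-largest values on MSM replicate 3. Pvalb was 4.65, 4.54 and 7.37 in MSM pups, against 4.57, 4.51 and 5.15 in MSS pups. Calb2 was 8.77, 8.69 and 10.26 in MSM pups, against 9.05, 8.65 and 8.99 in MSS pups. Both genes are also made by thalamic neurons, parvalbumin by those of the reticular nucleus, and their differences of 0.77 and 0.34 turned to -0.15 and -0.17 without MSM replicate 3 and SSM replicate 1. Gad1 was 9.65, 9.60 and 10.37 in MSM pups, against 9.71, 9.47 and 9.86 in MSS pups, and Gad2 9.23, 9.32 and 10.01, against 9.27, 9.10 and 9.49 in MSS pups. Their differences of 0.20 and 0.23 were -0.05 and -0.02 without the same arrays. The count of 1 member was 0 without MSM replicate 3 (against 1.69% of all genes) or MSS replicate 1 (2.31%) and 3 without MSM replicate 1 (5.33%) or MSM replicate 2 (4.91%). It was 2 without SSM replicate 1 (3.12%), MSS replicate 2 (1.79%), MSS replicate 3 (3.16%) or CC replicate 1 (2.38%).

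Markers of other cells also moved between MSM and MSS pups. All 15 choroid plexus genes lay above 0 (median 0.83), 10 of them at an unadjusted p under 0.05, against the 2.57% of all genes above. So did 8 of 9 oligodendrocyte genes (median 0.57), 10 of 12 thalamic genes (median 0.35) and 9 of 11 striatal genes (median 0.31). In turn 11 of 13 pyramidal and granule cell genes lay below 0 (median -0.24). Without SSM replicate 1 and MSM replicate 3 the medians were 0.86 for choroid plexus, 0.21 for oligodendrocyte, -0.004 for thalamic, 0.28 for striatal and 0.03 for pyramidal and granule cell genes. Without SSS replicate 2 and MSS replicates 1 and 2, which leaves a single MSS array assumed to vary like the other groups, Htr3a was at -0.32 (unadjusted p = 0.181), Npy at 0.12 and Sst at -0.10, and 0 of 10 members were counted against 1.56% of all genes. The part of these markers in the differences was not tested beyond these fits.

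**Figure D3:**
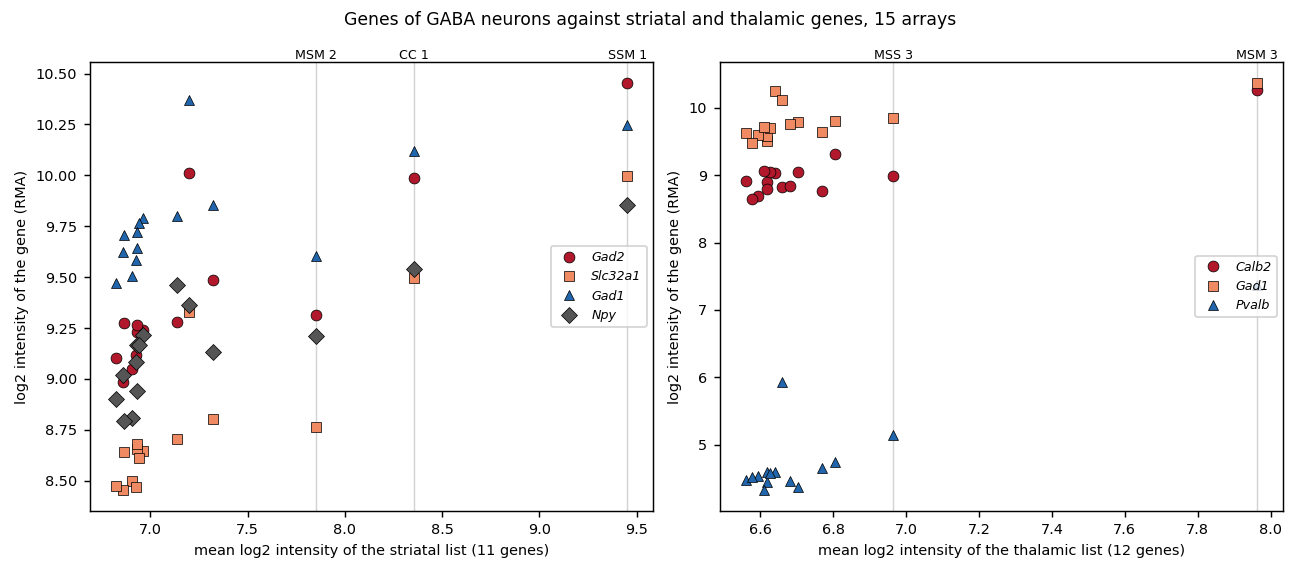
Log2 intensity of single genes (vertical axis) against the mean log2 intensity of 11 striatal genes (left) and 12 thalamic genes (right) on the 15 arrays, with the arrays of highest list level marked. On the left Gad2 and Slc32a1 are highest on SSM replicate 1, followed by CC replicate 1 or MSM replicate 3; on the right Calb2, Gad1 and Pvalb are highest on MSM replicate 3.

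Severe stress was set against mild stress within each drug. With morphine, Sst and Htr3a were higher in SSM than in MSM pups at an unadjusted p under 0.05, 2 of 10 members against 14.3% of all genes (2858 genes, none after adjustment, limma). From the values above, every SSM array exceeded every MSM array for both genes, and the groups overlapped for the other 8 (14.1% of all genes did not overlap). The Sst difference was 0.41 (SE 0.10, 1.33-fold, unadjusted p = 0.00106, adjusted p = 0.164), and the Htr3a difference 0.52 (SE 0.14, 1.43-fold, unadjusted p = 0.00235, adjusted p = 0.182). Without SSM replicate 1 and MSM replicate 3 they were 0.28 and 0.41 (unadjusted p = 0.0128 and 0.000151), and Calb2 at 0.44 and Reln at -0.32 were counted with them, 4 of 10 members against 14.2% of all genes. The number was also 4 without SSM replicate 2 (18.9%), 5 without MSM replicate 3 alone (10.7%), and 1 without SSM replicates 1 and 3 and MSM replicate 3 (6.07%), where Htr3a was counted and Sst was not (unadjusted p = 0.0668). With saline, SSS minus MSS lay between -0.24 (Pvalb and Gad2) and 0.09 (Reln), 0 of 10 members had an unadjusted p under 0.05 against 2.85% of all genes (568 genes, none adjusted, limma), and the groups overlapped for all 10 (10.9% of all genes did not overlap). The severity comparison cannot be told apart from the SS number, since no number held both stress levels, and the same holds for the controls, which had a number of their own, 12. Morphine and saline under severe stress are nearly as tied to it. SSM replicates 2 and 3 had number 9, and SSS replicates 1 and 2 had number 10. In fits without SSM replicate 1 the SSM and SSS arrays shared no number, so drug and number cannot be told apart there.

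**Figure D4:**
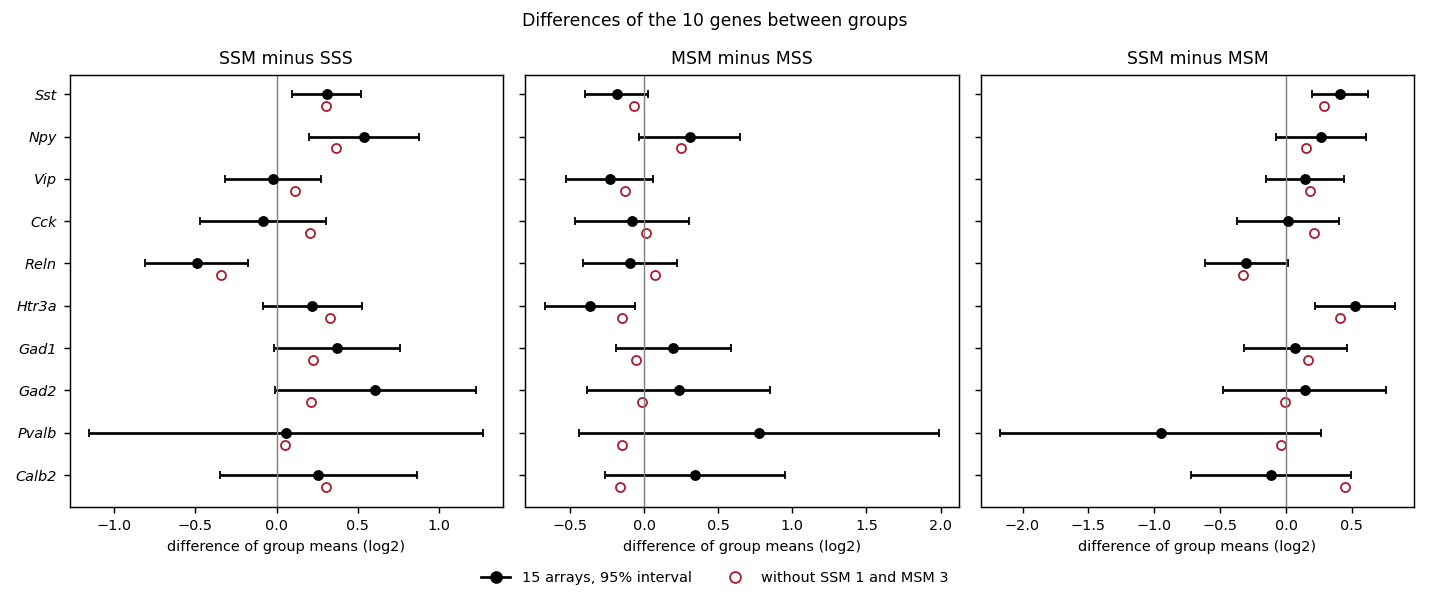
Differences of group means (log2, horizontal axis) for the 10 genes in 3 comparisons; filled points are fits to all 15 arrays with their 95% intervals, and open points the same differences without SSM replicate 1 and MSM replicate 3. The intervals of Sst, Npy and Reln lie clear of 0 in SSM minus SSS (0.31, 0.54 and -0.49), that of Htr3a in MSM minus MSS (-0.37), and those of Sst and Htr3a in SSM minus MSM (0.41 and 0.52).

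Whether the morphine difference depended on the stress level was tested as an interaction, the SSM minus SSS difference less the MSM minus MSS difference. Sst gave 0.50 (SE 0.14, unadjusted p = 0.00323) and Htr3a 0.59 (SE 0.20, unadjusted p = 0.0103), 2 of 10 members against 3.65% of all genes, with an adjusted p of 0.959 for both (727 genes unadjusted, none adjusted, limma). Each of these genes lay higher with morphine under severe stress and lower with it under mild stress, by the values already given. Leaving out SSM replicate 1 and MSM replicate 3 gave a count of 4 (5.28%), Sst at 0.37, Htr3a at 0.48, Reln at -0.42 (unadjusted p = 0.0153) and Calb2 at 0.47 (unadjusted p = 0.0112). Leaving out MSM replicate 3 alone gave a count of 5 (3.30%), with Gad1 as the fifth. Leaving out SSS replicate 2 and MSS replicates 1 and 2 gave a count of 0 (1.79%), with Sst at 0.37 (unadjusted p = 0.0522) and Htr3a at 0.50 (unadjusted p = 0.101). The interaction of Sst stayed between 0.32 and 0.59 over 28 alternatives and that of Htr3a between 0.37 and 0.71 over 27, with an unadjusted p under 0.05 in all but the fit without those 3 arrays. The adjusted p was at least 0.612 throughout. With all arrays the interaction was 0.23 for Npy (95% interval -0.25 to 0.71), -0.39 for Reln (95% interval -0.84 to 0.05) and -0.08 for Calb2. Markers of other cells moved with it, and 11 of 11 striatal genes (median 0.60) and 10 of 11 microglial genes (median 0.14) lay above 0. Of the microglial genes 4 had an unadjusted p under 0.05 (Tyrobp, C1qb, Fcer1g and Aif1). Below 0 lay 14 of 15 choroid plexus genes (median -0.61).

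Averaged over both stress levels, morphine minus saline was 0.42 for Npy (SE 0.11, unadjusted p = 0.00199, adjusted p = 0.649), -0.29 for Reln (SE 0.11, unadjusted p = 0.0138) and 0.29 for Gad1 (SE 0.13, unadjusted p = 0.0436). These 3 of 10 members stand against 7.64% of all genes (1523 genes unadjusted, none adjusted, limma). Npy ranked 42 of 19938 genes by p, and its average stayed between 0.25 and 0.50 over 28 alternatives. In Npy all 3 SSM arrays exceeded all 3 SSS arrays and all 3 MSM arrays exceeded all 3 MSS arrays. With SSM replicate 1 and MSM replicate 3 left out, 1 member was counted (7.52% of all genes), Npy at 0.31. Reln was then at -0.14 (unadjusted p = 0.0918) and Gad1 at 0.09 (unadjusted p = 0.318). None was counted when SSM replicate 3 was left out too (3.71%). With SSS replicate 2 and MSS replicates 1 and 2 left out, Npy alone was counted, at 0.34 (unadjusted p = 0.0471, 2.49% of all genes), with Reln at -0.26 and Gad1 at 0.21. Averaged over drugs, severe minus mild stress was 0.16 for Sst and 0.23 for Htr3a (unadjusted p = 0.0414 and 0.0404), 2 of 10 members against 12.1% of all genes; 2 genes passed adjustment by limma, neither of them a member. The severity count of members was 0 without SSM replicate 3, SSS replicate 1, SSS replicate 3, MSS replicate 2 or MSS replicate 3 (9.24% to 10.7% of all genes), 1 without SSM replicate 2, MSM replicate 3 or CC replicate 3 (10.4% to 14.7%), and 0 under median centring (10.7%).

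The untreated controls lay among the treated groups for most of the genes. Sst was 11.14, 11.03 and 11.08 in CC pups, Npy 9.54, 9.17 and 8.94, and Reln 9.44, 9.23 and 9.08. Htr3a was 6.21, 6.19 and 6.31 and Gad1 10.12, 9.76 and 9.72. SSM minus CC was 0.14 for Sst (SE 0.10, unadjusted p = 0.178), with every SSM array above every CC array, 0.30 for Npy (SE 0.16, unadjusted p = 0.0821) and -0.26 for Reln (SE 0.15, unadjusted p = 0.106); without SSM replicate 1 and MSM replicate 3 the 3 values were 0.14, 0.12 and -0.11. SSS minus CC had the opposite sign in each of these genes, -0.17 for Sst, -0.24 for Npy and 0.23 for Reln; both comparisons share the CC arrays. CC replicate 1, the array with the next highest striatal genes after SSM replicate 1, was the highest of its group for Sst, Reln, Npy, Gad1, Gad2 (9.99, against 9.17 and 9.26) and Pvalb (5.92, against 4.47 and 4.32), whereas Reln was lowest of all on SSM replicate 1.

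Against CC, members at an unadjusted p under 0.05 numbered 0 of 10 for SSM (9.01% of all genes, 1796), 0 of 10 for SSS (2.03%, 404), 2 of 10 for MSM (2.76%, 551) and 0 of 10 for MSS (2.22%, 442), and no gene passed adjustment in any of them (limma). The 2 in MSM were Sst at -0.26 (SE 0.10, unadjusted p = 0.0184) and Htr3a at -0.35 (SE 0.14, unadjusted p = 0.0283), both with groups that did not overlap. Groups did not overlap for 1 member in SSM against CC (Sst, against 11.9% of all genes), 4 in SSS against CC (Cck higher, Sst, Gad1 and Gad2 lower, against 9.36%), 2 in MSM against CC (7.84%) and 1 in MSS against CC (Cck higher, against 9.41%). Without MSM replicate 3 the MSM differences were -0.15 (unadjusted p = 0.125) and -0.12 (unadjusted p = 0.208). With SSM replicate 1 and MSM replicate 3 left out, the members counted were 3 in SSM against CC (Htr3a at 0.28, Cck at 0.37 and Calb2 at 0.27, against 15.5% of all genes) and 3 in SSS against CC (Reln at 0.23, Gad1 at -0.30 and Gad2 at -0.42, against 3.64%), and no member in MSM against CC. The counts also moved without SSM replicate 2 (2 in SSM against CC, 14.7% of all genes) and without CC replicate 3 (1 in SSS at 1.37%, 1 in MSM at 1.53% and 1 in MSS at 1.51%). Without CC replicate 1 they were 1 in SSM (5.72%) and 1 in MSM (4.05%), without SSM replicate 1 alone 1 in SSM (13.3%), and without MSM replicate 3 alone 1 in SSS (2.56%) and 0 in MSM (2.58%). Fitted on the SSS and CC arrays alone, 3 members were counted in SSS against CC (4.44%). The F-test over all 5 groups gave an unadjusted p of 0.0105 for Sst, 0.0174 for Npy, 0.0305 for Htr3a and 0.0485 for Reln, 4 of 10 members against 7.24% of all genes (1444 genes, none adjusted, limma).

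Further genes of the same cells were read from lists put together for this description. Of the 3 measured genes that package, take up or break down GABA, all lay above 0 in SSM minus SSS and none below an unadjusted p of 0.05. Slc32a1, which codes for the vesicular GABA transporter, was 9.998, 8.64 and 8.71 in SSM pups, against 8.50, 8.45 and 8.47 in SSS pups, a difference of 0.64 (SE 0.30, unadjusted p = 0.0519) that was 0.20 without SSM replicate 1 and MSM replicate 3. Of 5 measured Dlx-family and related transcription factors of forebrain GABA neurons, all were highest on SSM replicate 1. Only 1 of the 5 had an unadjusted p under 0.05, against 9.37% of all genes. This was Dlx5, with a difference of 0.61 (SE 0.28, unadjusted p = 0.0483). Its values were 8.44, 7.05 and 7.24 in SSM pups, against 6.85, 7.10 and 6.95 in SSS pups, so that only SSM replicate 1 was far from the SSS range, and the difference was 0.18 without the same 2 arrays.

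With all arrays, none of 15 measured genes of medial-eminence interneurons had an unadjusted p under 0.05 between SSM and SSS. The same held for 12 genes of caudal-eminence interneurons. The median differences of these lists were 0.04 and 0.13. Between SSM and MSM the medial genes Lhx6, the factor that specifies somatostatin and parvalbumin cells, and Nos1, the neuronal nitric oxide synthase of neurogliaform and ivy cells, were at 0.27 (unadjusted p = 0.0157) and 0.31 (unadjusted p = 0.0226). For both, MSM replicate 3 was the lowest array, at 6.57 for Lhx6 and 7.07 for Nos1. Of the caudal genes Cxcl14, a chemokine of these interneurons, was at 0.64 (unadjusted p = 0.0365), and of the Dlx list Dlx2 was at 0.44 and Dlx1 at 0.27 (unadjusted p = 0.0276 and 0.0411). The counts between SSM and MSM were thus 2 of 15 medial, 1 of 12 caudal and 2 of 5 Dlx-list genes, against 14.3% of all genes. Between MSM and MSS the medial genes Nxph1 and Kcnc1, a synaptic ligand and a potassium channel of fast-spiking cells, were at 0.23 and 0.24 (unadjusted p = 0.0493 and 0.0494). That was 2 of 15, against 2.57% of all genes. Without SSM replicate 1 and MSM replicate 3 none of these 7 had an unadjusted p under 0.05: Lhx6 was at 0.10, Nos1 at 0.17, Cxcl14 at 0.09, Dlx2 at 0.11, Dlx1 at 0.01, Nxph1 at 0.10 and Kcnc1 at 0.07. Other genes of these lists came under 0.05 in that fit. Between SSM and SSS they were the medial genes Cort (0.25) and Pnoc (0.19) and the caudal gene Tac2 (0.22). That was 2 of 15 and 1 of 12, against 11.9% of all genes. Between SSM and MSM they were the medial Cort (0.30) and the caudal Adarb2 (0.15), 1 of 15 and 1 of 12, against 14.2%. No gene of these lists passed adjustment in any comparison with all arrays (limma).

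Receptors for the 4 peptides were measured in all 12 genes listed. Sstr5, a somatostatin receptor, was 4.89, 5.00 and 5.11 in SSM pups, against 4.83, 4.74 and 4.83 in SSS pups, all below the median gene level of 6.25. Its difference of 0.20 (SE 0.07, unadjusted p = 0.00978, adjusted p = 0.494 by limma) was the only one of the 12 at an unadjusted p under 0.05, against 9.37% of all genes. It was 0.26 without SSM replicate 1 and MSM replicate 3. The other 4 somatostatin receptors lay between -0.16 and 0.02. Cckbr, the brain receptor of cholecystokinin, was at 0.41 between SSM and MSM (unadjusted p = 0.00633) and at -0.30 between MSM and CC (unadjusted p = 0.0340), with its lowest value, 6.66, on MSM replicate 3. Also between MSM and CC, the VIP receptor gene Vipr2 was at 0.38 (unadjusted p = 0.0102) and the neuropeptide Y receptor gene Npy1r at -0.39 (unadjusted p = 0.0481), and MSM replicate 3 held the highest value of Vipr2 (5.24) and the lowest of Npy1r (6.56). Of the 12 genes 1 was counted between SSM and MSM, against 14.3% of all genes, and 3 between MSM and CC, against 2.76%. Without the same 2 arrays Cckbr was at 0.31 between SSM and MSM (unadjusted p = 0.0215), and against CC Cckbr was at -0.14, Vipr2 at 0.18 and Npy1r at -0.24, none of the 3 at an unadjusted p under 0.05.

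Of 6 measured genes that receive or relay the reelin signal, none had an unadjusted p under 0.05 between SSM and SSS, and their median was 0.04. Lrp8, which codes for the reelin receptor ApoER2, was 9.35, 9.42 and 9.48 in SSM pups, against 9.51, 9.59 and 9.50 in CC pups, a difference of -0.12 (unadjusted p = 0.0424, limma), and it was 9.52, 9.51 and 9.52 in SSS pups. It alone of the 6 was counted between SSM and CC, against 9.01% of all genes. The Cajal-Retzius list gave 1 gene of 6 in SSM against MSM, against 14.3% of all genes. This was Lhx1 at -0.29 (unadjusted p = 0.0470), highest on MSM replicate 3 at 6.17. Leaving out SSM replicate 1 and MSM replicate 3 gave -0.08 for Lrp8 (unadjusted p = 0.174) and -0.05 for Lhx1. Other genes of these lists came under 0.05 in that fit. Dab1 of the reelin list was at 0.22 between SSM and CC (unadjusted p = 0.00875), with 0.20 in MSS and 0.17 in SSS against CC. Between SSM and MSM the Cajal-Retzius genes Ebf3 and Lhx5 were at 0.30 and 0.27 (unadjusted p = 0.00561 and 0.0326, limma). That was 2 of 6, against 14.2% of all genes.

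Markers of other cells moved as follows in SSM minus SSS. All 11 striatal genes lay above 0 (median 1.00), with Tac1, which codes for the substance P precursor, at 1.37 (unadjusted p = 0.0145). Microglial genes lay above 0 in 11 of 11, 3 of them at an unadjusted p under 0.05 (Tyrobp 0.20, C1qb 0.28 and Aif1 0.18), against the 8.71% of all genes that were higher at that threshold. On the same list 8 of 11 were highest on SSM replicate 1, where they summed to 1849 against 1391 to 1597 elsewhere. Oligodendrocyte genes lay above 0 in 9 of 9 (median 0.55), thalamic genes in 9 of 12 (median 0.11), choroid plexus genes in 14 of 15 (median 0.26), astrocyte genes in 5 of 10 (median 0.01) and pyramidal and granule cell genes in 3 of 13 (median -0.16). With SSM replicate 1 and MSM replicate 3 left out, Tac1 was at 0.62, Tyrobp at 0.17, C1qb at 0.16 and Aif1 at 0.13. Tyrobp alone of these 4 then had an unadjusted p under 0.05 (limma). The list medians were then 0.13 for striatal, 0.15 for thalamic, 0.13 for choroid plexus, 0.09 for microglial and 0.08 for oligodendrocyte genes. Those of pyramidal and granule cell genes and of astrocyte genes were 0.05 and 0.03, and that over all genes was 0.08. In that fit 11 of 12 thalamic genes lay above 0, with Synpo2 (0.18) and Slc17a6 (0.37) at an unadjusted p under 0.05. That was 2 of 12, against 11.9% of all genes. Gjb6 of the astrocyte list (0.36) and Calb1 of the pyramidal and granule list (0.28) were also under it, 1 of 10 and 1 of 13 (limma). No gene of these lists passed adjustment (limma), and their part in the differences of the 10 genes was not tested beyond the fits given.

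The 10 genes did not vary as a unit over the 15 arrays, which share their dissections. Pearson's r was 0.91 between Gad1 and Gad2 (0.87 without SSM replicate 1 and MSM replicate 3), 0.83 between Sst and Htr3a (0.78) and 0.82 between Npy and Gad2 (0.62). It was -0.94 between Cck and Gad2 (-0.84), -0.77 between Npy and Vip (-0.68) and -0.67 between Npy and Reln (-0.33). For Calb2 with Htr3a it turned from -0.67 with 15 arrays to 0.78 with 13. For Sst with Npy it was 0.12 on 15 arrays and 0.13 on 13, although both genes were higher in SSM than in SSS pups. These correlations are descriptions, without a test.

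For each member the genes most like it were taken as the highest Pearson's r over the 15 arrays, each centred on its median, among genes with a mean level of at least 7. For Gad2 they were Slc32a1 (0.99), the peptidase gene Ecel1 (0.97) and Abat, which codes for GABA transaminase (0.97), and for Gad1 Hap1 (0.96), Zcchc12 (0.95) and Cacna2d2 (0.94). For Npy they were the microglial genes C1qc, a subunit of complement C1q, and Ctss, cathepsin S (both 0.86), and Rgs2, a regulator of G protein signalling (0.85). Without SSM replicate 1 and MSM replicate 3 these 3 were at 0.74, 0.69 and 0.71. Sst was most like Nrde2 (0.93), Srp72 (0.88) and Lmo3 (0.87), which were at 0.83, 0.77 and 0.83 on 13 arrays. Reln was most like the fatty acid synthase gene Fasn (0.94), Ncoa6 (0.94) and the spectrin gene Sptan1 (0.92), which kept 0.92, 0.88 and 0.93. The values on 13 arrays were 0.98, 0.94 and 0.92 for Gad2 and 0.87, 0.85 and 0.80 for Gad1.

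For the remaining 5 genes the 3 highest values were also 0.91 or above on 15 arrays. They were picked as the highest among many genes, so high values follow in part from the choice. Htr3a was most like Itpka, a kinase of dendritic spines (0.95), Plppr5 (0.93) and Sult2b1 (0.93), and on 13 arrays these were between 0.65 and 0.74. Vip was most like the immediate early gene Nr4a2, Itgbl1 and Gnai1 (0.92, 0.92 and 0.91), and Cck most like Coro2a, Pygo1 and Cyth3 (0.92, 0.92 and 0.91). Pvalb was most like the nuclear receptor gene Esrrg (0.95), the GABA transporter gene Slc6a11 (0.94) and the vesicle protein gene Vamp1 (0.93), and Calb2 most like Ablim3, Syt9 and Ocrl (0.95, 0.94 and 0.94). On 13 arrays the 3 values were 0.85, 0.82 and 0.82 for Vip and 0.79, 0.71 and 0.80 for Cck. They were 0.88, 0.78 and 0.84 for Pvalb and 0.68, 0.76 and 0.65 for Calb2. All were lower than with 15 arrays, so the likeness with all arrays leaned in part on SSM replicate 1 and MSM replicate 3.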

How the data were processed

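Total RNA of each right hippocampus was read on Affymetrix Mouse Gene 1.0 ST arrays, and the authors deposited log2 intensities made with RMA, per the submitters' processing notes; no software or version is named there. The values were used as deposited. Of 35557 probe sets, the platform annotation gave 21789 a single symbol, 1621 several symbols and 12147 none here; the brightest single-symbol probe set per gene was kept (19938 genes) with no filter on dim genes. All 15 columns are named by sample accession and were matched on it. Groups came from the labels, and replicate numbers were given in accession order and pair nothing.

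Group means of the 15 arrays were fitted per gene in limma 3.58.1 (R 4.3.3; lmFit and eBayes, 10 residual and 4.61 prior degrees of freedom), 11 contrasts and an F-test, two-sided, with Benjamini-Hochberg adjustment over 19938 genes and a threshold of 0.05. The fit was tested on simulated data with independent noise and no array standing apart, so that test does not cover the array shifts described above. The precision is limited by the number of arrays, with a median SE of 0.081. The members, the 14 further lists (with the members, 150 of 158 genes measured) and the tests were chosen with earlier results of these data known. All 10 members were named in every comparison, from each list up to 3 genes at the smallest unadjusted p under 0.05, and 3 most-like genes per member; Lrp8 and Slc32a1 between SSM and SSS and the array extremes of list genes were named after their values were seen. Alternatives were 2 scalings, arrays left out, the groups of a comparison alone, a filter on dim genes, the mean of a gene's probe sets, array weights, a trended prior, and the SS number as a random block.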

Additional observations from a re-analysis of the deposited data

How the results depend on the processing

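None of the 10 genes passed the adjusted threshold in any of the alternatives run. Of 3047 recomputed differences, 2972 moved by less than the spread within groups and 75 by more, and 222 had the other sign, none of them called. These counts do not measure stability. Leaving out only arrays of other groups cannot move a difference, and the arrays that stood apart widen the spread. Gad2 in SSM minus SSS went from 0.61 to 0.21 without SSM replicate 1 and MSM replicate 3, and its SD within groups was 0.42. The number of genes called was 0 in all 28 alternatives for SSM against SSS, for the morphine average and for the interaction. Leaving out 1 array at a time gave 0 to 8 calls for SSM against MSM (8 without SSS replicate 1, 1 without MSM replicate 1) and 0 to 1 for MSM against MSS, for each treated group against CC and for the F-test. Leaving out SSM replicate 1 and MSM replicate 3, alone or with CC replicate 1 (a choice made after the data were seen), gave 1 call for SSS against MSS and 1 for the F-test. For the severity average the count of 2 was 1 to 17 when 1 array was left out (17 without SSS replicate 3, 5 without SSM replicate 3), 14 under quantile normalization, 17 under median centring, 43 with array weights and 4 with the mean of all probe sets of a gene. It was 1 without SSM replicates 1 and 3 and MSM replicate 3, with the groups of the comparison only, with genes above the median gene only, with the SS number as a random block, with a trended prior, and, chosen after the data were seen, without SSM replicate 1 and MSM replicate 3 under quantile normalization. It was 0 without SSS replicate 2 and MSS replicates 1 and 2, also chosen after the data were seen. The cause was not tested. No paired analysis was possible because the labels carry no replicate numbers that pair pups across groups.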
